A study of Zea mays with 12 samples.

Results

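The regions of the maize genome that replicate in early S phase were taken from a map of replication timing in root tips, made by Repli-seq with G1 DNA as the reference. The domains were chosen by the timing class that the authors gave each segment: touching segments whose class name holds ES, that is ES itself and the mixed classes ESMS, ESLS and ESMSLS, were joined. This rule gave 3953 domains, built from 9060 of the 20613 classified segments and covering 769.65 Mb, or 36.7%, of 2095.27 Mb of classified sequence. A stretch of pure ES inside a domain is called its core, and the mixed segments between the outermost core and the end of the domain are called its edge.

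The plants were seedlings of the inbred line B73, grown for 3 days at 28 C. All of them, those that gave the G1 nuclei included, received 25 µM EdU for 20 min and were then moved to 100 µM thymidine. Nuclei of the terminal 1 mm of the root were sorted by DNA content and EdU signal into early S, mid S, late S and G1. Each of these 4 groups has 3 libraries, labelled as biological replicates. EdU-labelled DNA was immunoprecipitated from the S-phase nuclei, and the G1 DNA was sequenced without immunoprecipitation. The sort separates stages of the cell cycle and not cell types, so each library holds a mixture of the cell types of the root tip.

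Replication of a eukaryotic chromosome starts at many origins, and forks move outward from each until they meet forks from its neighbours. Origins that fire at similar times lie in clusters, so the genome is copied in domains, and sequence beside an early domain is as a rule copied later than its middle. In plants and animals early replication is known to go with open, gene-rich chromatin and late replication with heterochromatin.

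The deposited values are a single segmentation in windows of 10 kb, with coordinates and classes but no ratio, read count or column for a library. Depth per library is therefore unknown, and neither the early S libraries nor their spread could be examined singly. Each error given is an SD over the 10 chromosomes of a single genome, not over plants. Coordinates are those of the segmentation, for which no build is named. Number, length, spacing and make-up of the domains follow from the classes that chose them and are given as descriptions with no test.

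Most domains were short, and most of the early sequence lay in the long ones. Domain length had a median of 110 kb, with quartiles of 60 and 200 kb and a mean of 195 kb. The shortest domains were single windows of 10 kb, of which there were 64, and the longest measured 4.72 Mb. The 622 domains of at least 300 kb held 53.5% of the domain sequence, and the 90 of at least 1 Mb held 19.5%. At the other extreme the 351 domains of 30 kb or less held 1.05% of it, and 330 of these contained no pure ES.

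Pure ES made up most of the footprint. Cores took 75.9% of the domain sequence (584 Mb), edges 13.7% (106 Mb), mixed stretches between 2 cores of a domain 2.60% (19.99 Mb), and domains without any core the remaining 7.73% (59.5 Mb). The commonest arrangement was a core with a mixed edge on both sides, ESMS, ES, ESMS, in 1591 domains (40.2%). A core with an edge on its lower side only was found in 389 domains and on its higher side only in 369, while 171 domains were a bare core.

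The number of cores went with the length of the domain. A single core was present in 2523 domains, whose median length was 130 kb. Several cores were present in 299 domains, with a median of 480 kb, and 1131 domains (28.6%) had none, with a median of 50 kb and a longest of 220 kb. Domains with 2 cores numbered 251, those with 3 cores 40, those with 4 cores 6 and those with 5 cores 2. Cores of 1 domain were parted by mixed stretches with a median length of 50 kb (n = 357).

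**Figure D1:**
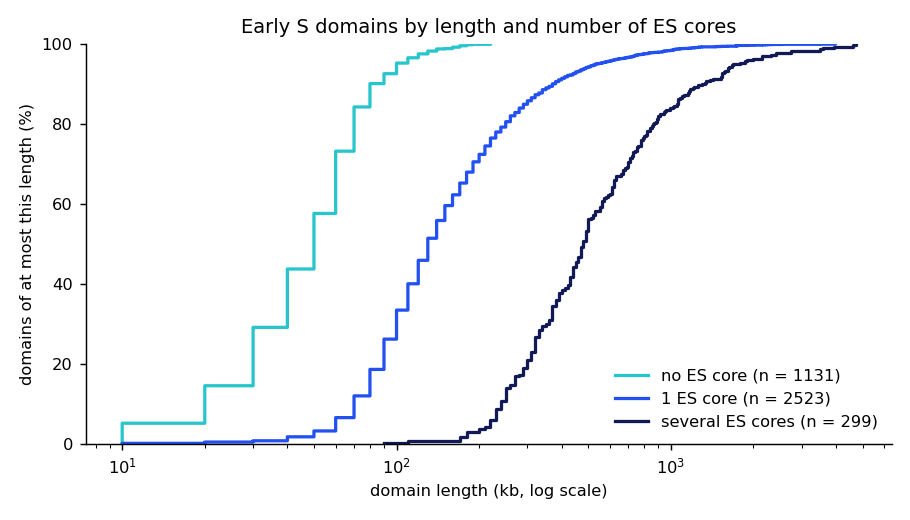
Share of early S domains (vertical axis, percent) that are no longer than a given length (horizontal axis, kb, log scale), for domains with no ES core, 1 core and several cores. Medians are 50 kb without a core, 130 kb with 1 core and 480 kb with several, and the domains without a core all lie at or below 220 kb.

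The 2 domains with the most cores lay on chromosome 7, from 166380001 to 168690000 (2.31 Mb, 88.7% core), and on chromosome 1, from 295490001 to 297390000 (1.9 Mb, 87.4% core). Each held 5 cores, and their mixed stretches between cores came to 190 and 210 kb. The 2 longest domains without a core were on chromosome 1 from 217910001 to 218130000 (220 kb, 5 protein-coding genes) and on chromosome 4 from 200470001 to 200660000 (190 kb, 3 genes), and 3 others measured 180 kb.

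Edges were narrow. Among the 5644 ends of domains with a core, 4390 had an edge, with a median width of 20 kb and a mean of 24.1 kb, and 38.3% of the edges were a single window. The widest measured 270 kb. The lower and the higher side did not differ by more than the spread between chromosomes: mean width, ends without an edge counted as 0, was 18.6 kb ± 1.32 on the lower side and 18.6 kb ± 1.96 on the higher side (SD, n = 10).

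The other 1254 ends (22.2%) had no edge, so that pure ES ran up to the end of the domain. Of these ends 604 met MS directly and 649 met sequence without a class. Ends with an edge met MS in 99.4% of cases, and only 23 of the 4390 bordered sequence without a class. Unclassified sequence thus bordered 51.8% of the bare ends. Of all 7906 domain ends, 11 touched MSLS or LS.

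Edges were widest where the sequence between 2 domains stayed in mid S. Next to a stretch whose latest class was MS, edges averaged 25.5 kb ± 1.56. Next to one that reached MSLS they averaged 21.5 kb ± 3.10, and next to one that reached LS 18.7 kb ± 2.16 (SD over 10 chromosomes; ends without an edge and ends beside unclassified sequence left out). Edges beside MS stretches were wider than those beside LS stretches on 10 of 10 chromosomes. Stretches that stay in MS were commoner in the outer 20% at each end, where edges were wider too (25.9 kb ± 2.67, against 22.4 kb ± 1.56 in the middle 60%). Within the outer parts the means were 26.4 kb ± 1.86 beside MS and 20.3 kb ± 4.99 beside LS, and within the middle 24.5 kb ± 1.99 and 18.1 kb ± 2.53. The share of ends without an edge was 12.2% ± 1.93, 11.8% ± 6.02 and 13.8% ± 3.00 in the same order, within the spread between chromosomes.

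Classes that join early with late S were found in 7 domains, with 9 such segments and 180 kb in all. In 6 of the 7 the domain touched LS or MSLS on at least 1 side, as on chromosome 10 from 47740001 to 47790000, where a core lay between 2 ESLS segments and LS followed on both sides. The exception was on chromosome 7, where an ESLS segment lay between 2 cores of a domain of 1670 kb (182170001 to 183840000, 81 protein-coding genes) with MS on both sides.

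Neighbouring domains were 150 kb apart at the median (n = 3943 stretches, quartiles 70 and 340 kb), and their centres were 360 kb apart. Most of the stretches between them stayed in mid S, but most of their length lay in those that reached LS. The latest class was MS in 2704 cases (68.6%), with a median length of 100 kb and 26.2% of the total length of 1350.12 Mb. It was MSLS in 345 cases (8.75%), with a median of 370 kb and 10.4% of the length, and LS in 771 (19.6%), with a median of 730 kb and 63.0% of the length. The last 123 stretches, 3.12% of all, had no class, with a median of 30 kb. No stretch that reached LS was shorter than 170 kb, and none that stayed in MS was longer than 1.05 Mb.

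**Figure D2:**
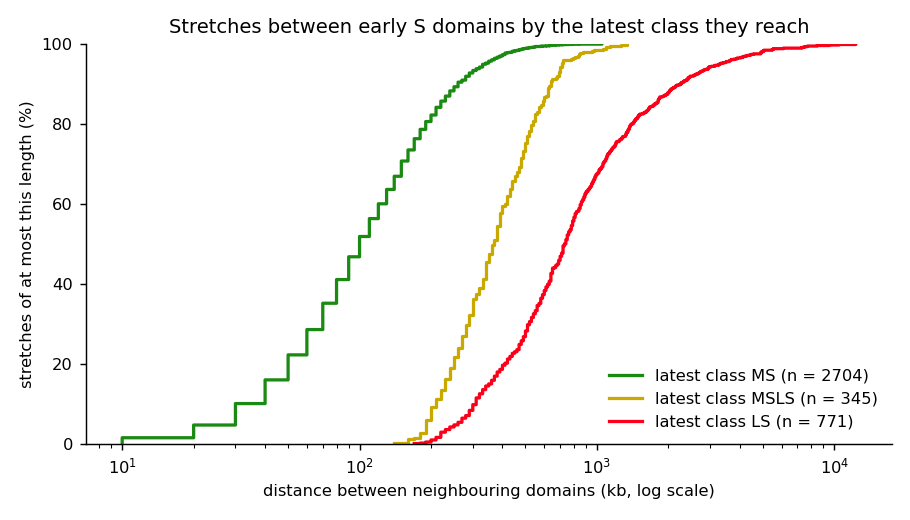
Share of the stretches between neighbouring early S domains (vertical axis, percent) that are no longer than a given length (horizontal axis, kb, log scale), by the latest class in the stretch. The median stretch is 100 kb with MS as the latest class, 370 kb with MSLS and 730 kb with LS; the 123 stretches without a class are not drawn.

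The 3 longest stretches without any early S domain lay in chromosome interiors. The first was on chromosome 3 from 81210001 to 93530000, 12.32 Mb long, 82.1% LS and with 40 protein-coding genes. The next was on chromosome 1 from 131200001 to 141650000, with 10.45 Mb, 88.9% LS and 19 genes. The third differed in make-up: on chromosome 5, from 133080001 to 142580000, a stretch of 9.5 Mb held 37.8% LS, 22.4% MSLS and 39.6% MS, with 80 genes. None of these 3 held a gene with a symbol other than a locus number.

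Long domains tended to lie beside long domains and near to their neighbours. Across 3943 pairs of neighbours Spearman's rho between their lengths was 0.272, and across 3933 domains rho between length and the mean of the 2 flanking distances was -0.350. In the outer 20% at each end of the chromosome the 2 values were 0.204 and -0.288, and in the middle 60% they were 0.233 and -0.297. These are descriptions of 1 map, in which neighbouring domains share a chromosome region and the distance between them. The 3943 pairs include 123 parted only by sequence without a class, with a median of 30 kb and 73.2% of them in the outer parts. In those pairs a gap in the map, and not a later class, separates the 2 domains. No rho without them is given.

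Towards the chromosome ends domains were longer, closer together and richer in core. In the outer 20% at each end median domain length was 140.5 kb ± 25.4, against 89.5 kb ± 9.56 in the middle 60%, and it was higher in the outer parts on 10 of 10 chromosomes (SD, n = 10). Median distance between domains was 113 kb ± 31.3 in the outer parts, against 208 kb ± 38.6 in the middle, lower in the outer parts on 10 of 10. Core took 82.1% ± 2.65 of the domain sequence in the outer parts, against 64.1% ± 4.77 in the middle. Domains without a core made up 21.6% ± 4.65 of the domains in the outer parts, against 34.8% ± 3.80 in the middle, and domains with several cores 11.3% ± 3.19 and 4.19% ± 1.63.

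The number of domains varied less with position than their length did. There were 2.08 domains per Mb ± 0.217 in the outer parts, against 1.73 ± 0.202 in the middle, higher in the outer parts on 9 of 10 chromosomes. With the outer 10% at each end set against the rest, the difference was 0.000883 per Mb. The highest number was between 70% and 80% of the chromosome in the direction of the coordinates, at 2.77 per Mb ± 0.308, and the lowest between 30% and 40%, at 0.907 ± 0.705. In the last 10% there were 1.63 per Mb ± 0.529, but these had a median length of 339 kb ± 144 and covered 80.5% ± 12.8 of the classified sequence. In the first 10% median length was 162 kb ± 65.3 and coverage 55.5% ± 22.1. Between 10% and 20%, a part counted as outer, they were 105 kb ± 24.9 and 34.8% ± 17.7. Between 70% and 80%, a part counted as middle, they were higher, at 129 kb ± 30.1 and 49.2% ± 9.87. Early sequence was most extensive at the far end of the chromosomes, where domains were longest but fewer per Mb than between 70% and 80%.

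**Figure D3:**
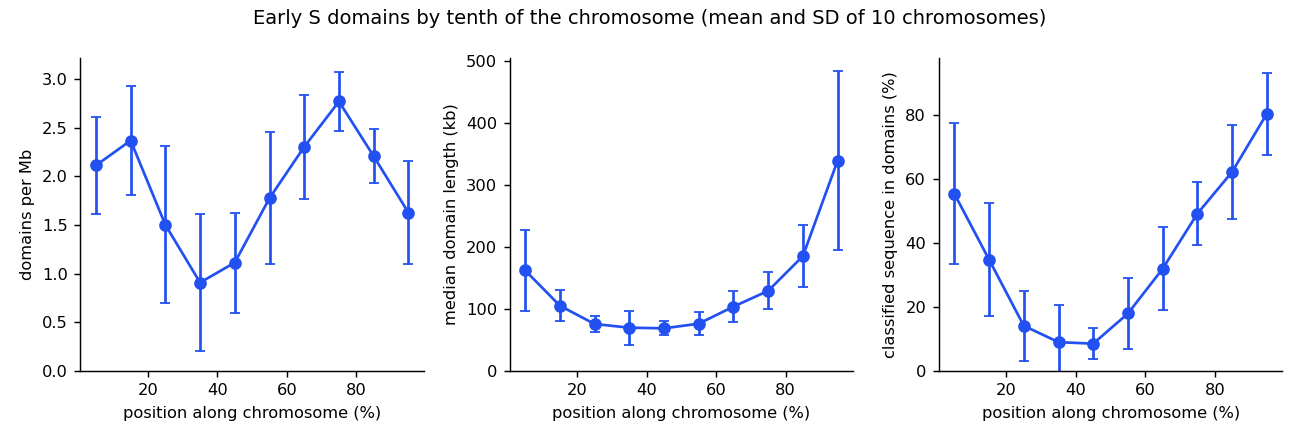
Early S domains in 10 equal parts of the chromosome, from the lowest to the highest coordinate (horizontal axis, percent of chromosome length): domains per Mb (left), median domain length in kb (middle) and percent of classified sequence inside domains (right). Points are means and bars SDs over the 10 chromosomes; the number of domains peaks at 2.77 per Mb between 70% and 80%, while length and coverage are highest in the last 10%.

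Of the 87 domains longer than 1 Mb, 57 lay in the last 20% of a chromosome, 24 in the first 20% and 6 in between. Of all domains, 820 lay in the last 20%, 940 in the first 20% and 2193 in between. The longest domain of the genome was on chromosome 2, from 2750001 to 7470000. It held 2 cores (98.7% core), a 30 kb edge on its higher side and 228 protein-coding genes, among them the lipoxygenase gene lox6, the only one with a symbol other than a locus number. The second was on chromosome 5, from 2800001 to 7410000 (4.61 Mb, 98.7% core, 231 genes), with no edge on either side; AO2 was the first gene in it with a symbol. The third was a bare core on chromosome 6, from 173770001 to 177750000 (3.98 Mb, 186 genes). The lower end of the longest domain, on chromosome 2, met sequence without a class. A gap in the map, and not a later class, set that end, so the domain may reach further.

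On the other chromosomes the longest domain measured 3.92 Mb on chromosome 9, 3.60 Mb on chromosome 3, 2.75 Mb on chromosome 7, 2.55 Mb on chromosome 10, 2.33 Mb on chromosome 1, 1.87 Mb on chromosome 4 and 1.74 Mb on chromosome 8. The midpoints of these 10 domains lay at most 5.77% of the chromosome length from an end. The domain of chromosome 10 (143410001 to 145960000) began its named genes with mbd123 and ended them with met2, and that of chromosome 4 (242500001 to 244370000) held sbp2 and sbp19. Sequence without a class ended a domain by rule, so a gap in the map can cut a length short. The higher end of the domain of chromosome 1 met such sequence. No length of a longest domain with such gaps joined is given.

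The chromosomes differed in coverage and were close in make-up. Domains per Mb averaged 1.87 ± 0.160 (SD, n = 10), with chromosome 7 lowest (1.63) and chromosome 1 highest (2.16). The share of classified sequence inside domains was 36.3% ± 4.64, with chromosome 4 lowest (28.1%) and chromosome 1 highest (43.5%). Median domain length per chromosome lay between 90 kb (chromosome 4) and 130 kb (chromosome 1), and median distance between 130 and 195 kb. The core share of the domain sequence was 75.9% ± 1.71, from 73.7% on chromosome 4 to 78.7% on chromosome 5.

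Early S domains came close to the last classified base of every chromosome, which was taken throughout as the chromosome's end. The last domain ended between 32.5 kb (chromosome 1) and 365 kb (chromosome 2) before the last classified base, with a median of 139 kb. At the start, the first domain began within 290 kb of the first base on 6 of 10 chromosomes, and after 610 kb on chromosome 8, 1040 kb on chromosome 4, 2030 kb on chromosome 9 and 5600 kb on chromosome 6.

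Genes were not used to define the domains, so they can be set against core and edge. Gene positions came from the RefSeq annotation of Zm-B73-REFERENCE-NAM-5.0, and each gene was placed by its midpoint. The 2 coordinate systems were matched on the data: the correlation of gene number with domain membership peaked at no offset on 9 chromosomes and at 10 kb on chromosome 10, within a search of 1000 kb on either side. The 10 correlations at no offset lay between 0.202 and 0.251. This check rests on the same association of genes with domains that is reported next. A single offset per chromosome cannot show local differences between the 2 systems. Domains held 22081 of the 33146 protein-coding genes with a class, or 66.6%, on 36.7% of the classified sequence.

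Gene density stepped down from core to edge to the sequence outside. Protein-coding genes stood at 31.3 per Mb ± 1.73 in the core, at 19.3 ± 1.18 in the edge and at 8.32 ± 0.473 in classified sequence outside domains (SD, n = 10). By chromosome the core ranged from 28.8 to 33.7 (median 31.9), the edge from 17.2 to 20.7 (median 19.4) and the outside from 7.53 to 8.99 (median 8.41), so the 3 kinds of sequence did not overlap. The core exceeded the edge by 11.99 genes per Mb ± 2.22, or 1.62-fold, and the edge exceeded the outside by 11.0 ± 1.12, or 2.32-fold, both on 10 of 10 chromosomes. An exact two-sided sign-flip permutation test over the chromosomes gave p = 0.00195 for each, the smallest that 1024 sign patterns allow, and 0.00260 after Benjamini-Hochberg adjustment over 8 tests. Mixed stretches between cores had 15.6 genes per Mb ± 2.49, which was not tested.

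**Figure D4:**
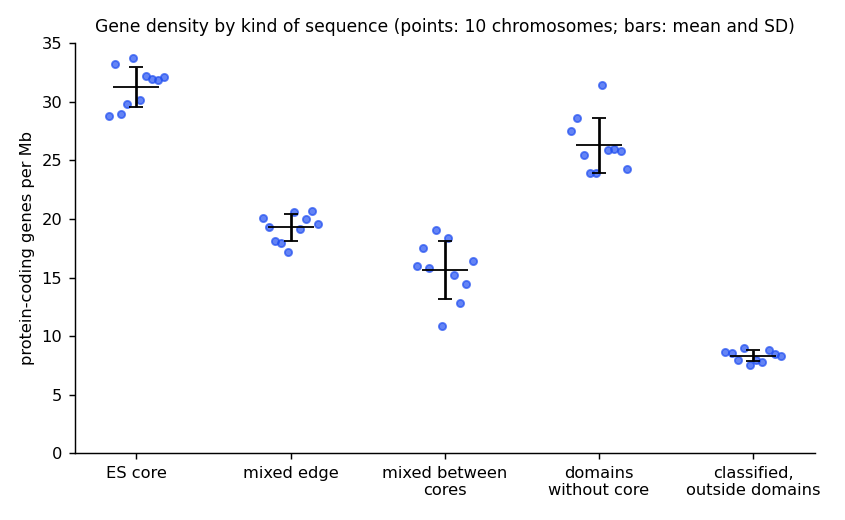
Protein-coding genes per Mb (vertical axis) in ES cores, mixed edges, mixed stretches between cores, domains without a core and classified sequence outside domains. Each point is 1 of 10 chromosomes and the bars are mean and SD; cores average 31.3, edges 19.3, domains without a core 26.3 and the outside 8.32.

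Domains without a core were richer in genes than the edges of other domains, although ESMS is the class of 1128 of the 1131 throughout and of nearly all edges. They held 26.3 genes per Mb ± 2.36, from 23.9 to 31.4, against 19.3 ± 1.18 in the edges, a difference of 6.99 ± 1.88 that was positive on 10 of 10 chromosomes (exact sign-flip p = 0.00195, adjusted p = 0.00260). Each such domain held 1 gene at the median and at most 9, and 257 of the 1131 (22.7%) held none. An edge is the flank of a domain, and a domain without a core includes its own centre, so the 2 differ in position as well.

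Across the end of a domain most of the change in gene density lay between 40 kb inside and 30 kb outside. In the 10 kb just inside the end there were 17.9 genes per Mb ± 1.72, in the next 10 kb 24.8 ± 0.947, and between 30 and 40 kb 30.6 ± 2.02. In the 10 kb just outside there were 13.0 ± 1.23, and between 20 and 30 kb outside 8.68 ± 1.35. Beyond that the density stayed between 8.59 and 10.3 out to 200 kb. From 30 kb inside to 200 kb inside it lay between 26.03 and 32.6, where fewer domains are long enough to count and the SD rose to as much as 7.93.

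**Figure D5:**
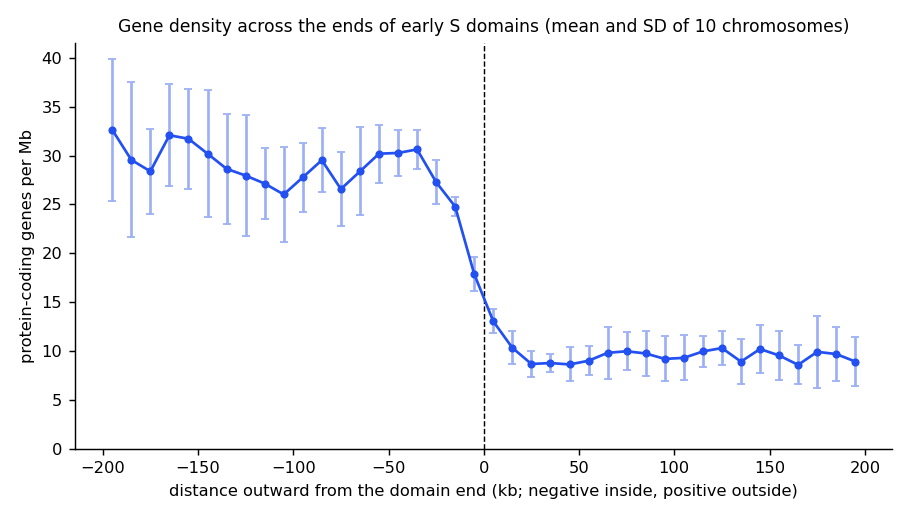
Protein-coding genes per Mb (vertical axis) by distance outward from the end of an early S domain (horizontal axis, kb; negative inside, positive outside), in 10 kb windows up to the middle of the domain or of the stretch between domains. Points are means and bars SDs over the 10 chromosomes; the density is 30.6 between 30 and 40 kb inside and 8.68 between 20 and 30 kb outside.

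Long domains had denser cores than short ones, in the outer parts of the chromosomes. Over whole chromosomes the cores of domains of at least 300 kb held 33.7 genes per Mb ± 2.44 and those of shorter domains 27.4 ± 1.06, a difference of 6.32 ± 2.31, positive on 10 of 10 (exact sign-flip p = 0.00195, adjusted p = 0.00260). Within the outer 20% at each end the values were 34.9 ± 2.45 and 28.9 ± 2.41. Within the middle 60% they were 26.2 ± 4.70 and 25.9 ± 1.44, a difference of 0.23 that did not pass (exact sign-flip p = 0.861, adjusted p = 0.861). The difference was larger in the outer parts than in the middle by 5.77 ± 4.07 genes per Mb, with that sign on 9 of 10 (exact sign-flip, adjusted p = 0.0260 over 8 such tests).

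The same split by position held for the depth within a core. In cores of at least 200 kb the first 50 kb from each end held 27.9 genes per Mb ± 3.74 and the deeper part 34.9 ± 2.92, a difference of -7.02 ± 4.75, negative on 9 of 10 chromosomes (exact sign-flip p = 0.00391, adjusted p = 0.00446). In the outer parts of the chromosomes the densities were 27.9 ± 3.79 and 36.3 ± 3.00. In the middle they were 27.6 ± 4.96 and 26.4 ± 3.89, a difference of 1.12 with the opposite sign (exact sign-flip p = 0.525, adjusted p = 0.600). The outer difference lay 9.56 genes per Mb ± 7.14 below the middle one, on 9 of 10 chromosomes (exact sign-flip, adjusted p = 0.0260). Windows were pooled over all such cores of a chromosome and not paired within a core. Each core gives the same length to the first 50 kb, so the longest cores weigh most in the deeper part. Depth was therefore not separated from core length.

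Gene number per domain followed length. Domains of 310 kb to 1 Mb held 13 genes at the median and those over 1 Mb held 50, while domains of 110 to 300 kb held 4 and those of 40 to 100 kb held 1. Density was 36.4 genes per Mb ± 4.41 in the domains over 1 Mb, 29.2 ± 2.19 in those of 310 kb to 1 Mb, 25.8 ± 1.05 at 110 to 300 kb and 24.5 ± 2.20 at 40 to 100 kb. In the smallest, of 10 to 30 kb, it was 29.2 ± 6.96, with 180 of 351 holding no gene. Make-up and position changed with length too. Core took 94.5% of the sequence in domains over 1 Mb and 37.4% at 40 to 100 kb. Of these domains 93.1% and 33.5% lay in the outer 20% at each end. Length was not separated from make-up or position here. No domain over 300 kb was free of genes. The longest without one was on chromosome 1 from 241910001 to 242060000 (150 kb, 93.3% core), followed by 1 on chromosome 3 from 227920001 to 228050000 (130 kb). In all, 325 domains (8.22%) held no protein-coding gene.

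Whether gene length differed between core and edge was not settled. The chromosomes' medians of protein-coding gene length averaged 3340 bp ± 63.2 in the core and 3241 bp ± 162 in the edge (SD, n = 10), a difference of 99.4 bp ± 180 that did not pass (positive on 7 of 10 chromosomes, exact sign-flip p = 0.119, adjusted p = 0.119). The call depended on the choice of genes and chromosomes. The difference was 570 bp with only the genes that lie wholly in 1 kind of sequence (exact sign-flip, adjusted p = 0.00223, 10 of 10). It was 323 bp in the outer 20% at each end (exact sign-flip, adjusted p = 0.0234, 8 of 10) and 135 bp without chromosome 8 (exact sign-flip, adjusted p = 0.0273). All 3 passed, but the first choice by construction drops long genes from narrow edges, so its value cannot decide the question.

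Long noncoding RNA genes and pseudogenes were a smaller part of the annotation in the core than outside domains, though not fewer per Mb. Long noncoding RNA genes were 8.35% ± 1.04 of all annotated genes in the core and 16.0% ± 1.41 outside domains, a difference of -7.64 points ± 1.99, negative on 10 of 10 chromosomes. Pseudogenes were 8.33% ± 0.941 in the core and 14.4% ± 0.984 outside, a difference of -6.09 points ± 1.46, also negative on 10 of 10. Each had an exact sign-flip p of 0.00195 and an adjusted p of 0.00260. Per Mb the core held 3.33 ± 0.442 long noncoding RNA genes against 2.06 ± 0.243 outside, and 3.34 ± 0.515 pseudogenes against 1.86 ± 0.194.

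The shares of short RNA genes inside domains lay near the 66.6% of protein-coding genes. Domains held 595 of 864 transfer RNA genes with a class (68.9%), 168 of 238 small nuclear RNA genes (70.6%), which serve in splicing, and 423 of 632 small nucleolar RNA genes (66.9%), which guide the modification of ribosomal RNA. MicroRNA genes were at 102 of 163 (62.6%). Transfer RNA genes stood at 0.877 per Mb ± 0.252 in the core, 0.359 ± 0.259 in the edge and 0.197 ± 0.0518 outside. Ribosomal RNA genes departed from this, with 38 of 212 (17.9%) in domains, all of them in core. They are near-identical copies, and a further 672 lay in sequence without a class. The counts in core and outside each came almost wholly from a single chromosome, so the share rests on few chromosomes. In core the mean over the chromosomes was 0.0552 per Mb and the highest value 0.542, and outside they were 0.158 and 1.58. No test was run on these types.

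Well-studied maize genes show how core and edge lie around single loci. Of 31 classical genes known to be in early S domains, 24 were in a core, 4 in an edge, 1 between cores and 2 in domains without a core. Over all 22081 protein-coding genes in domains, 82.3% were in a core, 9.22% in an edge, 1.41% between cores and 7.06% in domains without a core. The 31 genes were chosen with their class already known, so the counts are a description. The 31 genes fell in 28 domains of 40 kb to 4.72 Mb.

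Neighbouring loci shared domains. On chromosome 3, sh2, which encodes a subunit of the starch enzyme ADP-glucose pyrophosphorylase, and a1, which encodes an enzyme of anthocyanin synthesis, lay in a single domain of 610 kb (221620001 to 222230000) with 3 cores and 18 genes. sh2 was in a core and a1 in a mixed stretch between cores. On chromosome 9 the sucrose synthase gene sh1 and the anthocyanin glucosyltransferase gene bz1 shared a bare core of 780 kb (12360001 to 13140000, 29 genes). The benzoxazinoid genes bx1 and bx2, which make defence compounds, shared a bare core of 100 kb on chromosome 4 (4030001 to 4130000, 5 genes), while bx9 of the same pathway lay in a 190 kb domain of chromosome 1.

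Several loci sat in domains of 500 kb or more. lg1, needed for the boundary between leaf blade and sheath, was in the 4.72 Mb domain of chromosome 2, where the annotation lists it as a synonym of a locus number, and ra3, a regulator of inflorescence branching, in a 2.75 Mb domain of chromosome 7 with 87 genes. The anthocyanin regulator r1 lay in a 1.34 Mb domain of chromosome 10 with 2 cores, and zfl1, a regulator of flowering, in the next domain along, of 890 kb. lg2 was in a domain of 860 kb, ts2, which acts in sex determination of the tassel, in 1 of 510 kb, and tub1, a tubulin gene, in 1 of 500 kb. The DELLA growth repressors d8 and d9 were in shorter domains, of 270 and 470 kb.

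Other loci lay in domains of 80 to 320 kb. The waxy gene wx1, which encodes granule-bound starch synthase, lay in a domain of 80 kb of which 12.5% was core (25050001 to 25130000 on chromosome 9, 4 genes). The anthocyanin regulators c1 and pl1 were in domains of 260 kb (57.7% core) and 210 kb (81.0%), the alcohol dehydrogenase gene adh1 in 230 kb (65.2%) and the sucrose synthase gene sus1 in 160 kb (81.3%). Domains of 210 kb held the seed maturation regulator vp1 and the phytochrome gene phyB1, with 95.2% and 61.9% core. The pyruvate decarboxylase gene pdc1 lay in 230 kb, and the root hair gene rth3 in 320 kb.

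The genes outside cores divided between long and short domains. kn1, the homeobox regulator of the shoot meristem, and the nitrate transporter gene nrt2 were in the edges of domains of 730 kb and 1.52 Mb that were otherwise 93.2% and 96.1% core. The axillary meristem gene ba1 and the silencing gene mop1 were in the edges of domains of 220 and 180 kb with 40.9% and 44.4% core. y1, which encodes a phytoene synthase of carotenoid synthesis, was the only gene of a 40 kb domain without a core on chromosome 6 (91610001 to 91650000), and gl8, of cuticular wax synthesis, lay in a 70 kb domain without a core that held 5 genes.

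Among genes that act in S phase, 7 of 7 lay in cores, where 82.3% of all protein-coding genes in domains lie; they too were chosen with their class known, and nothing is read from the count. The origin recognition genes orc1, orc2, orc3 and orc4 were in domains of 460, 960, 80 and 1060 kb. PCNA, the sliding clamp of the replication fork, lay in a 3.48 Mb domain near the end of chromosome 5 with 140 genes. The cyclin-dependent kinase gene cdc2 lay in the 2.33 Mb domain that is the longest of chromosome 1, and the histone gene H3C2 in a domain of 170 kb. Over all 38 named genes the median length of the domain was 390 kb, and over all protein-coding genes in domains it was 400.0 kb.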

How the data were processed

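Samples were put into early S, mid S, late S and G1 by their titles. Trimmomatic 0.39, SAMtools 1.9 and Bowtie2 2.5.1 are named in the submitters' processing notes. How segments were called, how replicates were joined and which build was used is stated nowhere in the labels or the file header. The deposited file holds, per its header, a segmentation in 10 kb windows; it gives classes and coordinates only, so depth and counting error are unknown. Domains were joined from touching segments, and sequence without a class ended a domain. Genes came from the RefSeq table of Zm-B73-REFERENCE-NAM-5.0, which gives no strand or exons; 47019 genes lie on the chromosomes, 33681 of them protein-coding, and no gene coordinate is printed. Of the named genes, 36 were matched by synonym and 2 by symbol.

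The 8 comparisons of genes used exact two-sided sign-flip permutation over the 10 chromosomes, with Benjamini-Hochberg adjustment, run with scipy 1.17.1, pandas 2.3.3 and numpy 2.4.6 under Python 3.11.15; figures used matplotlib 3.10.9. These p-values cover the spread between chromosomes alone. The code was tested on simulated data. Members, gene lists and tests were chosen with earlier results of these data known. Named were the genes of those lists, and the longest domains and stretches without a domain, with their first and last gene that has a symbol; the domains with most cores, without a core, without genes or with late mixtures were chosen after their values were seen. Promoter GC content was not analysed here.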

Additional observations from a re-analysis of the deposited data

Results flagged for a closer look

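Chromosome 1 stood apart from the other chromosomes in the number of domains, with 655 against 459 on the next, chromosome 2; it also had the most classified sequence, 303.8 Mb, and in domains per Mb it had 2.16 against 2.09 on chromosome 8. This was 1 of 21 measures examined for a chromosome far from the rest, and chance alone marks about 1 in 20. The start of the first domain is not among the measures flagged, though chromosome 6 lay far from the rest there. It began at 5600 kb on chromosome 6, against 2030 kb on chromosome 9, the next highest.

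Gene contrasts were also set between the outer 20% at each end and the middle 60%, in 8 exact sign-flip tests of the difference itself. The excess of the core over the edge was 13.2 genes per Mb ± 3.35 near the ends and 8.08 ± 2.79 in the middle, and differed by 5.10 ± 4.81, on 9 of 10 chromosomes (exact sign-flip, adjusted p = 0.0260). The excess of cores in domains of at least 300 kb over cores in shorter ones differed by 5.77 ± 4.07 (adjusted p = 0.0260, exact sign-flip). The contrast between the first 50 kb of a core and the deeper core differed by -9.56 ± 7.14 (adjusted p = 0.0260, exact sign-flip). The other 5 contrasts did not pass, with adjusted p from 0.309 to 0.816 by the same exact test. Whether the make-up of the genes themselves has a part in these differences was not tested.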

How the results depend on the processing

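Of 172 alternative values, 165 kept their direction and their side of the threshold or stayed near the value reported. They came from other ways to join domains, a minimum length, other chromosome parts, other ways to place genes and leaving out each chromosome. Of the 165, 119 left out 1 chromosome and so kept most of the data, and 46 came from the other changes. The 119 include the number of domains, 3298 to 3686, which falls by construction when a chromosome is left out. With pure ES segments alone the median distance between neighbours was 200 kb in place of 150 kb. There were then 3179 units, which the tally takes as near 3953. With the outer 10% at each end, domains per Mb differed by 0.000883. In the middle 60% alone the excess of long over short domains was 0.23 genes per Mb and the contrast of the first 50 kb with the deeper core was 1.12; the cause was not tested. Gene length differed between core and edge by 570 bp with genes wholly in 1 kind of sequence, a choice that by construction drops long genes from narrow edges, and by 323 bp in the outer parts, and both passed. Without each chromosome in turn it differed by 65.1 to 134.9 bp. No paired analysis was possible because the deposited segmentation has no column for a library; libraries could not be left out for the same reason. Promoter GC content was planned and not run. Depth limits cannot be given, and windows of 10 kb limit every edge width.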
